A study of Rattus norvegicus with 4 samples.

Results

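The genes described here modify and fold collagen in the endoplasmic reticulum (ER), process and cross-link it outside the cell, and answer stress in the ER. They are 45 genes chosen by name, of which 40 had a row that was not 0 in all 4 libraries, out of 10789 such rows in the whole table, and 38 reached the minimum level for testing out of 8752. The libraries came from articular cartilage of the proximal tibia of 2 Sprague-Dawley rats aged 10 weeks, with no treatment given in the labels. Each rat gave 1 library of the superficial zone (SFZ), the cell layer at the joint surface, and 1 of the deeper layers (deep AC), cut from the same frozen sections by laser microdissection. RNA was amplified linearly before sequencing, so reads are not independent starting molecules. All differences are SFZ minus deep AC within a rat on the log2 scale, where -1 is a level 0.5 times as high in SFZ.

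Chondrocytes secrete large amounts of collagen. Prolyl and lysyl residues of new collagen chains are hydroxylated in the ER, which lets the triple helix hold at body temperature and prepares sites for cross-links; chaperones keep the chains apart until they fold, and outside the cell the propeptides are cut off and lysyl oxidases start the cross-linking. When unfolded protein builds up in the ER, the sensors IRE1 (gene Ern1), PERK (gene Eif2ak3) and ATF6 start the unfolded protein response, which raises chaperones through XBP1 and ATF6 and slows translation while raising ATF4. Chondrocytes carry a heavy load of secreted matrix protein and depend on this machinery.

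Some genes of this set, chaperones and others, carry a promoter element of the stress response in 1 of 2 forms, and sites are shown here because the genes that carry it went both ways between the zones. The ER stress response element (ERSE), the site of ATF6 with the general factor NF-Y, was searched as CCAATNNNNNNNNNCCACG, and its second form (ERSE-II) as ATTGGNCCACG, on both strands of windows from 250 bases before to 50 bases after the gene start (RefSeq, GRCr8). RefSeq windows were matched by gene identifier for 34 of the 42 genes with a row. ERSE stood in 6 of these 34 genes and in 22 of all 33469 windows (0.0657%). ERSE-II stood in 3 of the 34 genes and in 17 of all windows (0.0508%), and no gene of the set had both forms. The set is counted by genes and the background by windows. Many of the members were chosen as genes of ER folding and stress, so their share carries no test. A match is a description of the letters and not a measured binding site. Each line gives 1 of the sites, read in the direction of the motif, with the fixed letters of the motif in capitals.
Hspa5, ERSE at chr3:38452967-38452997: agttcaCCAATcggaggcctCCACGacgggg
Hsp90b1, distal ERSE at chr7:23012445-23012475: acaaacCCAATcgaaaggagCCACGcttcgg
Hsp90b1, proximal ERSE at chr7:23012341-23012371: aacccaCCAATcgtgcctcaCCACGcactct
Calr, ERSE at chr19:40213129-40213159: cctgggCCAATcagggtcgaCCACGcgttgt
Dnajc3, ERSE at chr15:102432528-102432558: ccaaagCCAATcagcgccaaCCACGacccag
Xbp1, ERSE at chr14:84604552-84604582: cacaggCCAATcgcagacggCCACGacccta
Dnajb11, ERSE-II at chr11:91672794-91672816: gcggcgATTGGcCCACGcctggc
Hyou1, distal ERSE-II at chr8:53602688-53602710: ctgcggATTGGcCCACGtcacgg
Hyou1, proximal ERSE-II at chr8:53602788-53602810: gtccccATTGGgCCACGtagaag
Herpud1, ERSE-II at chr19:10614815-10614837: gcgctgATTGGgCCACGttgggc

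Of the 38 tested genes, 21 were lower in SFZ in both rats (55.3%), with 6 higher in both (15.8%). Over all 8752 rows tested, 29.0% were lower in both rats, with 25.2% higher in both. Both SFZ libraries lay below both deep AC libraries for 13 of the 38, against 23.0% of all rows, and above them for 5, against 19.6% of all rows. The median difference of the 38 was -0.32 in rat 1 and -0.25 in rat 2, and that of all rows was -0.13 in rat 1 and 0.00 in rat 2. The members were chosen by name with results of these data known, so these shares are a description and carry no test.

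No gene of the set passed the test. limma, fitted across all 8752 rows with zone and rat as terms, had 0 rows higher in SFZ (0%) and 2 lower (0.0229%) at an adjusted p of 0.05, and none of the 38 was among them. The smallest adjusted p of the 38 was 0.491, shared by Lepre1 and Atf4, which were also the only genes of the set at an unadjusted p under 0.05, both lower in SFZ. Of all rows, 4.18% were higher and 5.71% lower at that unadjusted p. With 2 rats the fit had 1 residual degree of freedom, and the spread was shared across genes. A SFZ capture that holds fewer cells of a type cannot be told apart from one whose cells hold less of an RNA.

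**Figure D1:**
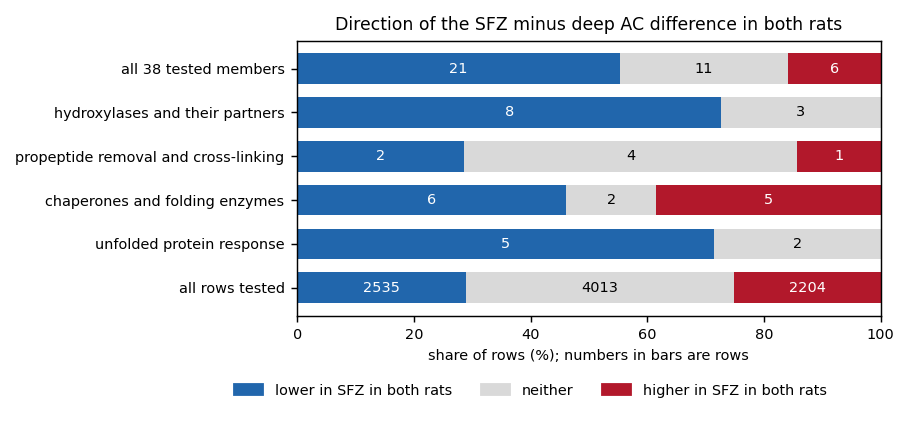
Share of tested rows (%, horizontal axis) that were lower in SFZ in both rats, higher in SFZ in both, or neither, for the 38 genes, for each role and for all 8752 rows; numbers in the bars are rows. The hydroxylase and unfolded protein response bars have no part that was higher in both rats, while the folding enzymes had 6 lower and 5 higher.

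The enzymes that hydroxylate collagen and the proteins bound to them were mostly lower in SFZ. Of 11 tested, 8 were lower in both rats (72.7%), against 29.0% of all rows. In the other direction 0 were higher in both, against 25.2% of all rows. Medians were -0.43 in rat 1 and -0.37 in rat 2. With quantile normalization 9 were lower in both and 0 higher. In 9 of the 11 the differences of the rats lay within 0.5 of each other, against 25.2% of all rows and 60.5% of the 38 genes. The share was 30.9% in rows averaging at least 100 scaled reads, and rows of still higher abundance were not compared. The 9 include P4hb, whose differences of -0.13 and 0.16 had opposite signs.

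Lepre1 (chromosome 5, 139816323 to 139831409 in rn4, plus strand), the prolyl 3-hydroxylase of fibrillar collagens, was lowest among them. Its deposited values, which are log2 less the median of the row, were -0.55 and -0.57 in SFZ of rats 1 and 2, against 0.65 and 0.55 in deep AC. The zones did not overlap, and the rats lay 0.03 apart in SFZ and 0.10 apart in deep AC. The 2 rats gave a mean difference of -1.16 ± 0.06 (SD, n = 2), with an SE of 0.36 and a limma adjusted p of 0.491, a level 0.448 times as high in SFZ. Its partners in the 3-hydroxylation complex are CRTAP, the cartilage-associated protein, and the prolyl isomerase cyclophilin B (gene Ppib). Crtap stood at -0.29 and -0.17, and Ppib at -0.43 and -0.37, so all 3 genes of the complex were lower in SFZ in both rats, by unequal amounts. The zones overlapped for Crtap, whose difference was 0.025 without deep AC rat 1.

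P4ha2 (chromosome 10, 39522157 to 39551063), a catalytic subunit of prolyl 4-hydroxylase, had values of -0.28 and -0.47 in SFZ, against 0.28 and 0.47 in deep AC. The zones did not overlap, and the mean difference was -0.74 ± 0.27 (SD, n = 2; limma adjusted p = 0.558). P4hb (chromosome 10, 109950221 to 109961716), the protein disulfide isomerase that is the other subunit of that enzyme and also works alone, had values of 0.08 and -0.08 in SFZ, against 0.21 and -0.24 in deep AC. Its zones overlapped fully and its mean difference was 0.01 ± 0.21 (limma adjusted p = 0.997). The 2 subunits of the enzyme thus stood at different values, but the difference between them was not tested. P4ha3, the third catalytic subunit, was listed at 0 in all 4 libraries, which does not show that it was absent. P4ha1 was not analysed here.

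The lysyl hydroxylase genes differed among themselves. Plod1 (chromosome 5, 164987247 to 165012583), which acts on the helical part of the chains, had values of -0.82 and -0.08 in SFZ, against 0.08 and 0.32 in deep AC. The smallest whole reads that matched these differences were 1411 and 2402 in SFZ, against 2689 and 3442 in deep AC, and the true reads are these or a common multiple of them. All SFZ values lay below all deep AC values, with a mean difference of -0.65 ± 0.35 (SD, n = 2; limma adjusted p = 0.614). Plod2, the hydroxylase of the telopeptides that sets up the stable cross-links of cartilage and bone, stood at -0.47 and -0.56 without overlap. Plod3 (chromosome 12, 20856527 to 20867088), which also adds sugars to hydroxylysine, had values of -0.09 and 0.08 in SFZ, against 0.38 and -0.08 in deep AC. Its differences of -0.48 and 0.16 had opposite signs, and its mean was -0.16 ± 0.45 (limma adjusted p = 0.926). It shares 109 bases with a gene on the other strand, and the sources used here do not give whether counting went by strand.

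The remaining relatives of Lepre1 were closer to 0. Leprel4, which encodes a non-catalytic scaffold of a lysyl hydroxylase complex with cyclophilin B, stood at -0.30 and -0.25 and did not overlap between zones. Leprel2, a prolyl 3-hydroxylase gene, stood at -0.04 and -0.32, and Leprel1, another, at 0.15 and -0.99. The low value of Leprel1 came from SFZ rat 2, where its smallest matching reads were 405, against 747 in SFZ rat 1 and 691 and 873 in deep AC.

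**Figure D2:**
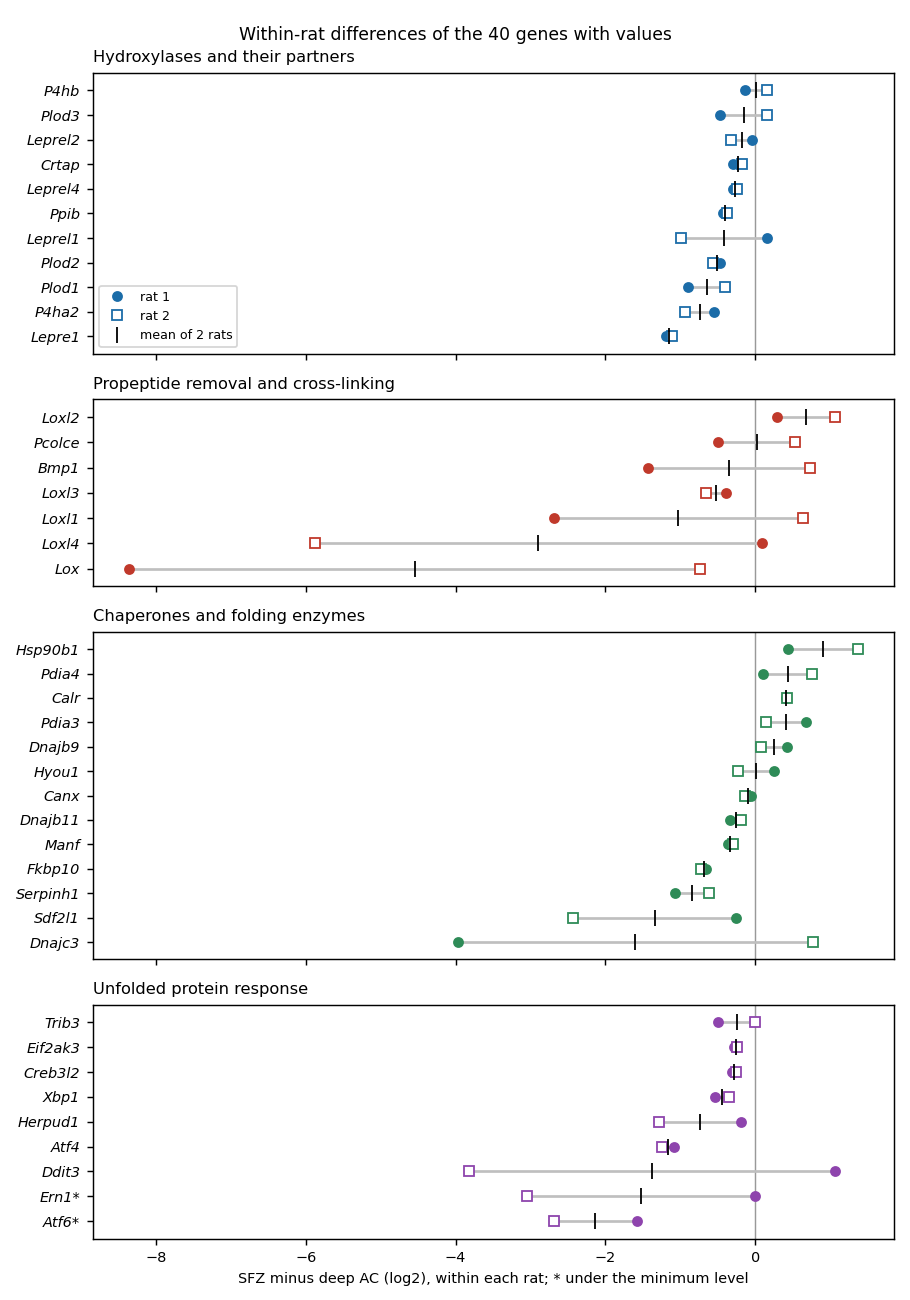
SFZ minus deep AC (log2, horizontal axis) in rat 1 (filled circles) and rat 2 (open squares) for the 40 genes with values, by role, ordered by the mean of the 2 rats (black tick); grey lines join the rats. Lepre1, Ppib and Plod2 have both rats close together and below 0, while Lox, Loxl4, Dnajc3 and Ddit3 are spread over more than 4 log2 units.

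Genes that cut the propeptides and cross-link the fibrils were the least repeatable. Of 7 tested, 2 were lower in both rats (28.6%), with 1 higher in both (14.3%), close to the shares of all rows, and medians of -0.50 in rat 1 and 0.53 in rat 2. In 1 of the 7 the rats lay within 0.5 of each other. With quantile normalization 3 were lower in both and 1 was higher.

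Lox (chromosome 18, 47896674 to 47970829), the founding lysyl oxidase, had reads of 0 and 247 in the SFZ of rats 1 and 2, set against 329 and 447 in deep AC. Its differences were -8.36 in rat 1, which depends on the floor of 1 scaled read, and -0.74 in rat 2, with a mean of -4.55 ± 5.39 (SD, n = 2; limma adjusted p = 0.545). The SFZ of rat 1 alone carries nearly all of that mean. Lox shares 4427 bases with LOC685970 and 254 with Zfp474, both on the other strand. Loxl4 (chromosome 1, 248269249 to 248287588) did the same in the other animal, with values of 0.04 and -5.72 in SFZ, against -0.04 and 0.17 in deep AC. Its mean was -2.90 ± 4.22 (limma adjusted p = 0.574). Loxl1 (chromosome 8, 62083051 to 62106827), the family member tied to elastic fibres, had smallest matching reads of 8 and 187 in SFZ, against 53 and 131 in deep AC, and differences of -2.69 and 0.63 (mean -1.03 ± 2.35, limma adjusted p = 0.854).

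Loxl2 and Loxl3 were steadier and went opposite ways. Loxl2 (chromosome 15, 49982103 to 50068900) had values of 0.14 and 0.60 in SFZ, against -0.14 and -0.47 in deep AC. It was higher in SFZ in both rats without overlap, by 0.68 ± 0.56 (SD, n = 2; limma adjusted p = 0.621), a level 1.60 times as high. Loxl3 stood at -0.39 and -0.65, also without overlap, and shares 43 bases with Htra2 on the other strand. Bmp1, the main procollagen C-proteinase, stood at -1.43 and 0.73. Pcolce (chromosome 12, 19672505 to 19678821), which enhances that proteinase, had values of -0.16 and 0.16 in SFZ, against 0.33 and -0.37 in deep AC, and so differed by -0.50 in rat 1 and 0.53 in rat 2 (mean 0.02 ± 0.73, limma adjusted p = 0.997). Pcolce2 was not analysed here.

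ER chaperones and folding enzymes went both ways. Of 13 tested, 6 were lower in SFZ in both rats (46.2%), against 29.0% of all rows. Another 5 (38.5%) were higher in both, against 25.2% of all rows. Medians were -0.06 in rat 1 and -0.14 in rat 2. Both SFZ libraries lay below both deep AC libraries for 2 of the 13, against 23.0% of all rows. They lay above them for 4, against 19.6% of all rows. With quantile normalization 4 were lower in both and 4 higher: Manf then stood above 0 in both rats, and Dnajb9, Pdia3 and Sdf2l1 had opposite signs.

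Serpinh1 (chromosome 1, 156666914 to 156674211), which encodes HSP47, a chaperone specific to procollagen, had values of -0.31 and -0.31 in SFZ, against 0.77 and 0.31 in deep AC. The zones did not overlap and the mean difference was -0.84 ± 0.33 (SD, n = 2; limma adjusted p = 0.525), a level 0.557 times as high in SFZ. Fkbp10, which encodes a prolyl isomerase of procollagen, stood at -0.66 and -0.72, again without overlap. It lies head to head with Leprel4 on chromosome 10 in rn4, with 1121 bases between the genes, and both were lower in SFZ in both rats.

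Hsp90b1 (chromosome 7, 23332986 to 23347525), which encodes the ER chaperone GRP94, was the highest of the set in SFZ. Its values were 0.22 and 0.96 in SFZ, against -0.22 and -0.41 in deep AC, and the zones did not overlap. The mean difference was 0.91 ± 0.66 (SD, n = 2; limma adjusted p = 0.539), a level 1.87 times as high in SFZ. Pdia4 (chromosome 4, 75929398 to 75948299), a disulfide isomerase gene, had values of 0.05 and 0.36 in SFZ, against -0.05 and -0.40 in deep AC. Both rats were above 0, with a mean difference of 0.43 ± 0.46 (limma adjusted p = 0.738). Pdia3, which works on glycoproteins with calreticulin and calnexin, stood at 0.68 and 0.14. Calr, which encodes calreticulin, stood at 0.41 and 0.43, and Dnajb9, a J-domain partner of BiP, at 0.43 and 0.08. Pdia3, Pdia4 and Dnajb9 did not overlap between the zones, while Calr did.

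The other chaperone genes were near 0 or rested on 1 library. Canx, which encodes calnexin, stood at -0.06 and -0.14, and it shares 1567 bases with a gene on the other strand. Hyou1, a large ER chaperone gene, stood at 0.25 and -0.24, Dnajb11 at -0.34 and -0.19, and Manf, which encodes a secreted stress-induced protein, at -0.37 and -0.30. Dnajc3 (chromosome 15, 103881634 to 103921295), which encodes the J-domain protein P58IPK, had smallest matching reads of 23 and 628 in SFZ, against 370 and 400 in deep AC. Its differences were -3.97 and 0.77, with a mean of -1.60 ± 3.35 (SD, n = 2; limma adjusted p = 0.723), and it shares 287 bases with LOC100361785 on the other strand. Sdf2l1 (chromosome 11, 85878093 to 85880335), an ER-resident partner of J-domain proteins, had smallest matching reads of 85 and 7 in SFZ, against 104 and 41 in deep AC, and differences of -0.25 and -2.43 (mean -1.34 ± 1.54, limma adjusted p = 0.804). Hspa5, which encodes BiP, the central ER chaperone that every cell uses, was listed at 0 in all 4 libraries, which may be a failed estimate. Pdia6 was not analysed here.

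**Figure D3:**
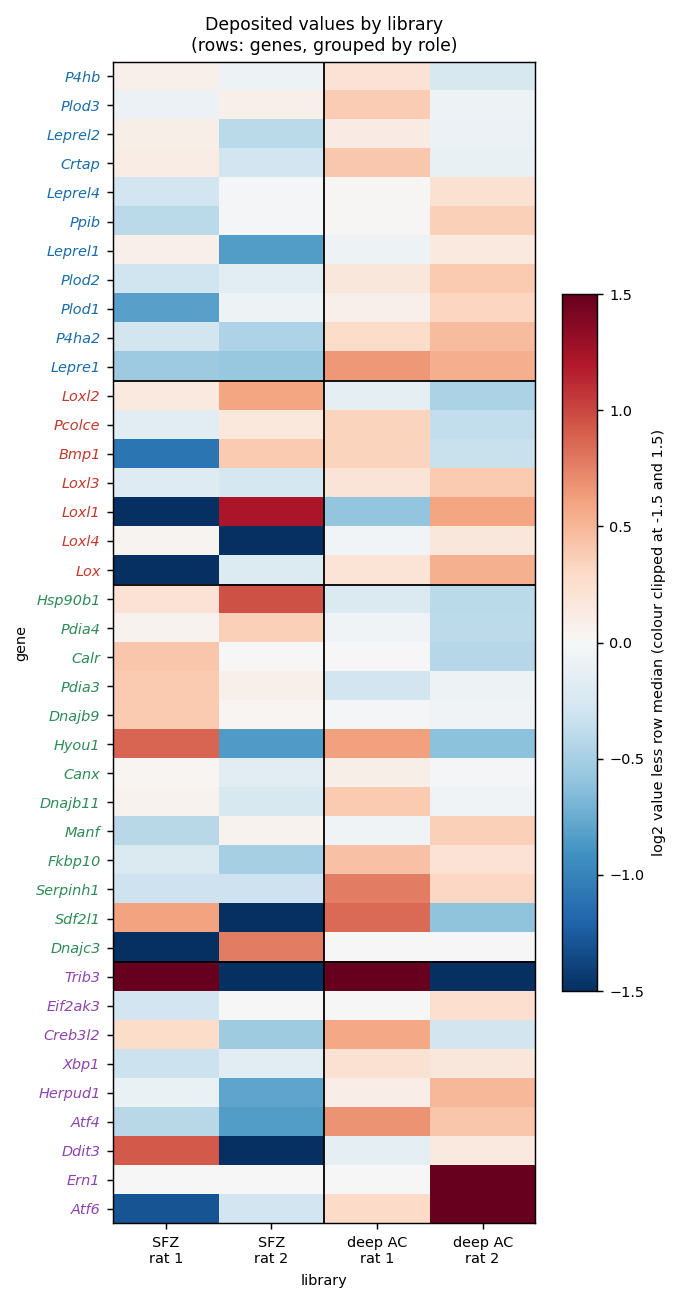
Deposited log2 value less the row median (colour, clipped at -1.5 and 1.5) of the 40 genes with values in the 2 SFZ libraries and the 2 deep AC libraries, grouped by role. Lepre1, P4ha2, Serpinh1 and Atf4 are blue in both SFZ columns and red in both deep AC columns, and the dark blue single cells of Lox, Loxl4, Dnajc3, Sdf2l1 and Ddit3 each sit in 1 SFZ library.

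Most of the tested genes of the unfolded protein response were lower in SFZ in both rats, while Ddit3 and Trib3 had no steady direction. Eif2ak3 was the only sensor gene tested. Of 7 tested, 5 were lower in both rats (71.4%), against 29.0% of all rows. In the other direction 0 were higher in both, against 25.2% of all rows. Medians were -0.31 in rat 1 and -0.35 in rat 2. With quantile normalization 4 were lower in both and 1, Creb3l2, was higher in both.

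Atf4 (chromosome 7, 118537718 to 118538994), the factor whose translation PERK raises, was lowest among those that repeated. Its values were -0.41 and -0.84 in SFZ, against 0.67 and 0.41 in deep AC, without overlap. The mean difference was -1.16 ± 0.12 (SD, n = 2; SE 0.36; limma adjusted p = 0.491), a level 0.446 times as high in SFZ. ATF4 is controlled mainly at translation, so its RNA level does not report its activity. Its targets Ddit3 and Trib3 differed between the rats. Ddit3 (chromosome 7, 67247749 to 67252571), which encodes CHOP, had values of 0.92 and -3.67 in SFZ, against -0.15 and 0.15 in deep AC, so that the SFZ libraries lay on either side of deep AC (mean -1.38 ± 3.45, limma adjusted p = 0.727). It shares 62 bases with Mars on the other strand. Trib3 (chromosome 3, 142664651 to 142670135), a pseudokinase gene, had 81 and 0 reads in SFZ libraries, against 117 reads in deep AC of rat 1 and the floor of 0 or 1 read in deep AC of rat 2. Its reads separated the rats and not the zones (mean -0.25 ± 0.35, limma adjusted p = 0.979).

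Xbp1, the factor activated by IRE1 splicing, stood at -0.54 and -0.35 without overlap. Herpud1 (chromosome 19, 11036567 to 11046914), part of the machinery that removes unfolded protein from the ER, had smallest matching reads of 1553 and 978 in SFZ, against 1816 and 2594 in deep AC. Its zones did not overlap, and its mean difference was -0.74 ± 0.78 (SD, n = 2; limma adjusted p = 0.635). Eif2ak3 (chromosome 4, 104016940 to 104078261), which encodes PERK, had smallest matching reads of 1166 and 1461 in SFZ, against 1451 and 1874 in deep AC. Its zones overlapped. Its differences of -0.28 and -0.24 were close, with a mean of -0.26 ± 0.03 (SE 0.38, limma adjusted p = 0.848). Creb3l2, which encodes an ER-bound factor that drives secretory genes in growing chondrocytes, stood at -0.31 and -0.26 with an SE of 1.29. Its smallest matching reads were 74 and 43 in SFZ, against 94 and 56 in deep AC, and its zones overlapped. The other sensors were below the minimum level: Atf6 had 0 and 2 reads in SFZ libraries, against 3 and 14 in those of deep AC, and Ern1 had 0 reads in both SFZ libraries, the floor in deep AC of rat 1 and 9 reads in deep AC of rat 2.

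The genes whose ERSE or ERSE-II sites are shown did not share a direction. Hsp90b1, with 2 ERSE matches, and Calr were higher in SFZ in both rats. Xbp1, Dnajb11 and Herpud1 were lower in both, and Dnajc3 and Hyou1 had opposite signs in the rats. The whole windows of the highest and of the lowest of those that went 1 way in both rats are Hsp90b1 at chr7:23012244-23012543 and Herpud1 at chr19:10614658-10614957 (GRCr8, minus strand, 300 bases each), with the fixed letters of each match in capitals and a match on the other strand shown as its complement.
Hsp90b1: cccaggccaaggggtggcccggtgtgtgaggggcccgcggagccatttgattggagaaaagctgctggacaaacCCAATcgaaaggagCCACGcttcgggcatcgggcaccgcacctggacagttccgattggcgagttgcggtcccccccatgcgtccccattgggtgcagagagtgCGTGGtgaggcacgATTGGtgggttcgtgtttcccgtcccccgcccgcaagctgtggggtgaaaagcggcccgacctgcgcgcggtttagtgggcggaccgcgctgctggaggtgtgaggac
Herpud1: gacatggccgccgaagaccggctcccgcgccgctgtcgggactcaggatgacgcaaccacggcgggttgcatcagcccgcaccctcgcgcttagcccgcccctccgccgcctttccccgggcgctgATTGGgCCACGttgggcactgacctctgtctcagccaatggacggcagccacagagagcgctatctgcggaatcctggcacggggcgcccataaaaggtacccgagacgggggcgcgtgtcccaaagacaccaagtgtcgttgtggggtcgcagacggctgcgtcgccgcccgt

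Wide gaps within a zone lay almost all in SFZ. The SFZ libraries of the 2 rats were more than 2 log2 units apart for 7 of the 38 genes (18.4%), against 27.4% of all rows. These were Lox, Loxl1, Loxl4, Dnajc3, Sdf2l1, Ddit3 and Trib3. The deep AC libraries were that far apart for Trib3 alone (2.63%), against 11.2% of all rows. The low library was SFZ rat 1 for Lox, Loxl1 and Dnajc3, and SFZ rat 2 for Loxl4, Sdf2l1, Ddit3 and Trib3, so no single library held them all. Differences within 0.5 of each other in the rats were found for 23 of the 38 genes (60.5%), against 25.2% of all rows. The share was 30.9% in the rows averaging at least 100 scaled reads. The 23 include Trib3, for which both libraries of rat 2 stood at the floor.

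**Figure D4:**
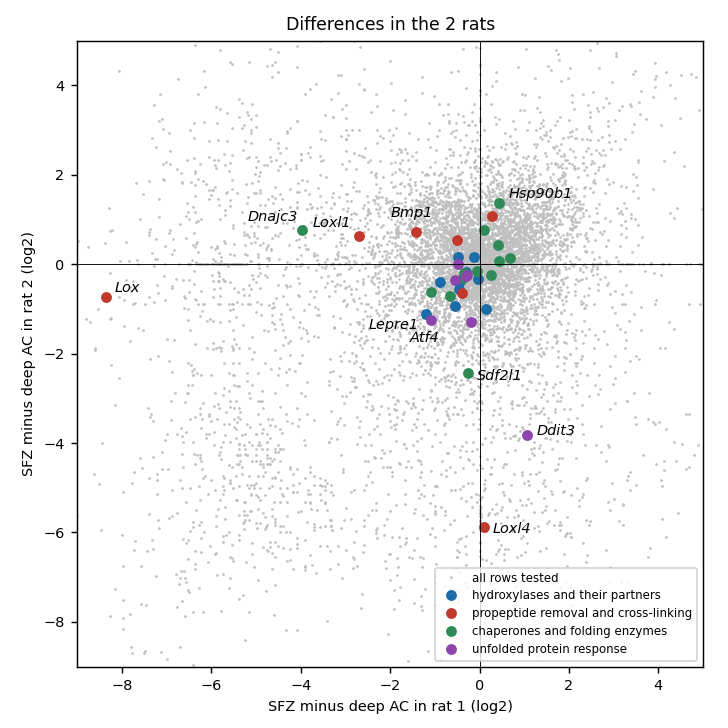
SFZ minus deep AC (log2) in rat 1 (horizontal axis) against rat 2 (vertical axis) for the 38 tested genes, coloured by role, over all rows tested (grey; rows beyond the axes are not drawn). Most of the 38 lie in a small cloud just below and left of 0, and Lox, Loxl4, Loxl1, Dnajc3 and Ddit3 lie far out along 1 rat's axis.

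Of the 38 genes, 29 had a mean difference below 0 (76.3%), against 54.5% of all rows. That number was 28 without SFZ rat 1 (73.7%, against 50.5% of all rows) and 24 without SFZ rat 2 (63.2%, against 52.4%). It was 25 without deep AC rat 1 (65.8%, against 52.5%) and 32 without deep AC rat 2 (84.2%, against 57.2%). These are counts, and single genes changed sides, among them Bmp1, Dnajc3 and Loxl1, which stood above 0 without SFZ rat 1, and Ddit3, Sdf2l1 and Trib3, which did so without SFZ rat 2. Of the 33 genes averaging at least 100 scaled reads, 18 were lower in both rats (54.5%), with 6 higher in both, against 25.1% and 30.2% of the rows at that level.

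The collagen chains that these enzymes act on are given beside them from a list of 18 genes. Of the 14 tested, 7 were lower in SFZ in both rats (50.0%), against 29.0% of all rows. Another 3 were higher in both (21.4%), against 25.2% of all rows. Medians were -0.23 in rat 1 and -0.53 in rat 2, and none passed the test. Col9a2 stood at -3.38 and -2.69, Col9a1 at -2.54 and -3.19, and Col2a1, the main collagen of hyaline cartilage, at -2.51 and -2.60. At the other end Col1a1 had smallest matching reads of 1113 and 58 in SFZ, against 8 and 13 in deep AC, and differences of 7.16 and 2.27. Col1a2, the other chain gene of type I collagen, stood only at 0.99 and 0.45, and its zones overlapped. Col3a1 stood at 0.37 and 0.26. Col5a3 stood at 3.27 and -0.47. Cartilage chains differed among themselves: Col11a1 stood at -1.38 and -1.38, Col11a2 at -0.79 and -0.59, and Col27a1 at -0.90 and 0.33.

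Other genes of collagen maturation, 25 by name, had 17 tested members. Of these, 8 were lower in SFZ in both rats (47.1%), against 29.0% of all rows. Another 3 were higher in both (17.6%), against 25.2% of all rows. None passed the test, and medians were -0.41 in rat 1 and -1.21 in rat 2. Tll1, which encodes a proteinase of the BMP1 family, was the highest, with smallest matching reads of 5631 and 4163 in SFZ, against 192 and 412 in deep AC, and differences of 4.91 and 3.45 (limma adjusted p = 0.229). Adamts2, the procollagen N-proteinase gene, stood at 3.14 and 2.59 on 60 and 6 reads in SFZ, against 7 reads in deep AC of rat 1 and the floor in deep AC of rat 2. The lowest were Fkbp11, a prolyl isomerase gene of secretory cells, at -8.52 and -4.91 (limma adjusted p = 0.229), and Tmem38b, an ER cation channel gene, at 0 and 35 reads in SFZ libraries, against 286 and 335 in those of deep AC. Adamts3, another procollagen N-proteinase gene, had opposite signs in the rats at 6.20 and -4.79, and the proteinase genes Adamts14 and Tll2 were under the minimum level. Propeptide proteinase genes thus had no common direction, Bmp1 included.

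**Figure D5:**
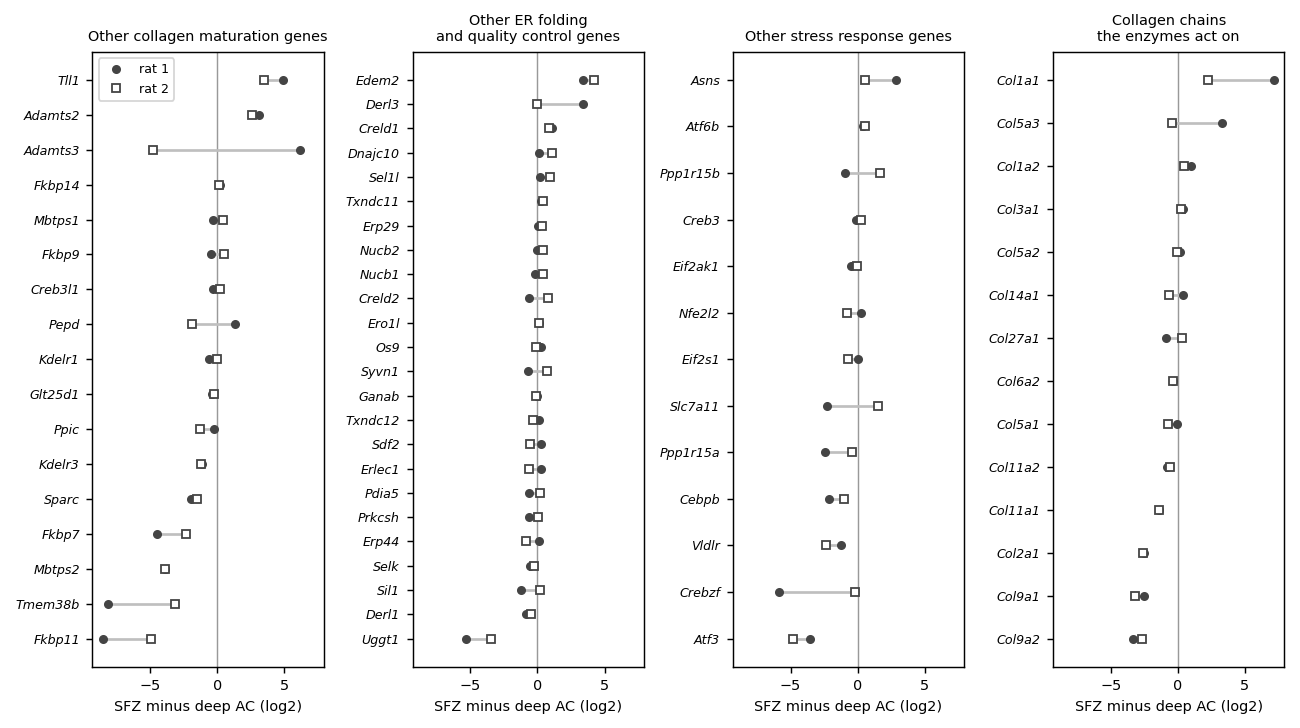
SFZ minus deep AC (log2, horizontal axis) in rat 1 (filled circles) and rat 2 (open squares) for the tested genes of 4 further lists; grey lines join the rats. Tll1 and Col1a1 lie far above 0 and Fkbp11, Atf3 and Col9a2 far below in both rats, while most quality control genes lie close to 0.

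The captured tissue carried cartilage markers, and other cell types could not be told apart from the zones. Of 8 hyaline chondrocyte markers 7 were tested and all 7 were lower in SFZ in both rats, while Sox9 stood at 0 throughout. Of 6 superficial zone markers 5 were higher in SFZ in both rats and Dpt was lower in both. Osteoblast and osteocyte markers were mostly lower in SFZ. Of 6 tested, 4 were lower in both rats, among them Ibsp at -8.75 and -10.27. Dmp1, another of the 4, had smallest matching reads of 1 and 1 in SFZ, against 531 and 53 in deep AC. Col1a1 was higher in both rats, and Phex had opposite signs at 0.65 and -5.24. Of their defining genes Sp7, Runx2 and Sost were listed at 0 in all 4 libraries, as were Sox9 and Hspa5. A 0 of this kind does not show that a gene was absent. The part of osteoblasts and osteocytes in the differences of the 38 genes was not tested. Of 5 synovial and tendon fibroblast markers 2 were lower and 2 higher in both rats, and of 7 macrophage markers 2 were lower and 1 higher. Of these, C1qa and C1qb were above the floor in SFZ rat 1 alone, at 119 and 91 reads, and Lyz2 had smallest matching reads of 1649 and 196 in SFZ, against 146 and 158 in deep AC. SFZ rat 1 was also the low library for Lox, Loxl1 and Dnajc3, and the part of macrophages in those values was not tested. The endothelial, erythroid and striated muscle lists had 1, 1 and 3 tested genes. Of these Tnni2 was lower in both rats, with none higher in both. Hba-a2, the erythroid gene, had smallest matching reads of 329 and 1586 in SFZ, against 351 and 252 in deep AC. Ckm had 96 reads in SFZ rat 2 and stood at the floor in the other libraries, and Myh2 differed by -4.78 and 5.76. SFZ rat 2 was also the low library for Loxl4, Sdf2l1, Ddit3 and Trib3. The part of blood and muscle in those values was not tested. Summed levels are not given, because the deposited values hold no level for the most abundant genes.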

How the data were processed

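Polyadenylated RNA from 4 laser-captured samples was amplified (RiboAmp HS PLUS) and sequenced from Illumina TruSeq libraries, per the labels' protocols. The authors deposited 1 table of log2 values for 31007 gene rows, scaled by TMM (trimmed mean of M values) per the title of the table, on build rn4 per the submitters' processing notes. Aligner, counting program and strand setting: not given in the sources used here. In the deposited log2 values every row's median was within 1e-06 of 0, so levels had been removed, and 20218 rows were 0 throughout.

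Levels were recovered as follows. In rows above 0 in 1 library alone, 93.98% to 96.75% of values were a whole number times a constant of the library to a relative tolerance of 1e-05, with everything under 1 scaled read set to 1. The constant was 1.02 and 1.00 in the SFZ libraries of rats 1 and 2, against 0.996 and 0.923 in their deep AC libraries, so a library at the floor held 0 reads in SFZ and 0 or 1 in deep AC. The floor fixed the level of 3375 rows. For 5372 rows the smallest whole reads that matched all differences to 1e-06, with a sum up to 20000, were taken, known up to a common factor. The other 2042 rows, 20 of the 40 genes among them, Lepre1 and Atf4 included, have a level known only as a bound from the binary places of the values. For the fit, rows at the highest binary place considered were set at a sum of 20000 scaled reads, or at their bound where that was higher. The spread that the trend gives such rows depends on this set level. Rows of known reads summed to 3758393 and 3954498 in the SFZ libraries, against 3763910 and 3885664 in the others; the total depth is unknown, and no interval is given.

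Rows with a recovered mean of at least 10 scaled reads were tested with limma 3.58.1 in R 4.3.3 (lmFit and eBayes with trend), with zone and rat as terms, two-sided, Benjamini-Hochberg adjusted over all rows. The rat is a block because the titles tie both zones to 1 animal; the correlation across genes of the rat difference in SFZ with that in deep AC was 0.0523. A ± is the SD of the 2 within-rat differences. The steps were tested on simulated data. That simulation had independent libraries, no rat effect and the same spread in both zones, so it does not show how the fit behaves here. The members and lists were chosen with earlier results of these data known. The rule for named genes gave in full the 2 highest and 3 lowest tested members of each role, and the 2 highest and 2 lowest of each further list. Alternatives are given in the closing section. The site of 1 gene with an element match is not reported here.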

Additional observations from a re-analysis of the deposited data

How the results depend on the processing

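The count of members lower in SFZ in both rats was 21, and lay between 18 and 22 with a minimum mean of 100 scaled reads, no minimum level, quantile normalization or a pseudocount of 1. On rows with known reads alone, chosen after seeing the data, it was 9 of 18 members, since fewer were tested, with 15 below 0 by their mean. It cannot be had with a library left out. The median difference of the members was -0.34 and ran from -0.45 to -0.19 without 1 library each; it was -0.40 with quantile normalization, which moved the median of all rows by 0.17 in rat 1. All rows had 2 calls, also with no replicate block, no minimum, the higher minimum or the pseudocount; 74 with quantile normalization (31 higher, 43 lower), 1 with unresolved levels at their binary bound, also chosen after seeing the data, 0 with an untrended prior or with known reads alone, and 0 to 407 without 1 library each, where 1 zone has a single library assumed to vary like the other. The rat block changed no call of the set. With quantile normalization Creb3l2 reversed to 0.26 and Manf to 0.29. Without 1 library each, Creb3l2 ran from -0.71 to 0.14, Leprel2 from -0.43 to 0.069, Sdf2l1 from -3.16 to 0.47 and Crtap from -0.49 to 0.025. Further members changed sign in the same way. Trib3 ran from -3.68 to 3.19, Ddit3 from -3.67 to 0.92 and Dnajc3 from -3.97 to 0.77. Loxl1 ran from -3.29 to 1.23, Bmp1 from -1.09 to 0.39 and Hyou1 from -0.86 to 0.87. Leprel1, P4hb, Pcolce and Plod3 also changed sign, between -0.88 and 0.37. Over all alternatives 0 of 431 member values passed the threshold (smallest adjusted p 0.149). Ern1, Atf6, Sdf2l1, Manf and Creb3l2 rest on few reads.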

Other observations

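Further genes of ER quality control and of the stress response were compared from lists of 39 and 21 names. Of 24 tested quality control genes, 4 were lower in SFZ in both rats (16.7%), against 29.0% of all rows. Another 7 (29.2%) were higher in both, close to the 25.2% of all rows. Medians were 0.08 in rat 1 and 0.12 in rat 2. Edem2, which steers misfolded glycoproteins to degradation, had 126 and 19 reads in SFZ, against 12 reads in deep AC of rat 1 and the floor in deep AC of rat 2, and Derl3, of the same disposal route, had 82 and 0 reads in SFZ, against 8 reads and the floor. Uggt1, the folding sensor of glycoproteins, had 0 reads in both SFZ libraries, against 41 and 12 in deep AC, and Derl1 stood at -0.82 and -0.48. Ero1l, the oxidase that recharges disulfide isomerases, stood at 0.10 and 0.09.

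Of 13 tested stress response genes, 6 were lower in SFZ in both rats (46.2%), against 29.0% of all rows. Another 2 (15.4%) were higher in both, against 25.2% of all rows. Medians were -0.94 in rat 1 and -0.17 in rat 2. Atf3, an early stress factor downstream of ATF4, had 0 reads in both SFZ libraries, against 12 and 30 in deep AC, and Crebzf had 0 and 45 reads, against 58 and 55. Asns, the asparagine synthetase gene that ATF4 raises, stood at 2.87 and 0.54, and Atf6b, the relative of ATF6, at 0.42 and 0.55. None of these genes passed limma at an adjusted p of 0.05.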
